A study of Mus musculus with 53 samples.

Results

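The circadian clock genes of the mouse brain were followed through 53 RNA sequencing libraries from mice that model SCA3 (spinocerebellar ataxia type 3). The members were the rows of the count table with the symbols Arntl, Clock, Npas2, Per1, Per2, Per3, Cry1, Cry2, Dbp and Nr1d1. All 10 were present among the 12372 genes of the table, which held only genes averaging above 4 CPM (counts scaled by library size). The study compared untreated male MJD84.2 mice with wild-type C57BL/6 mice in dissected brainstem, cerebellum, cortex and striatum. MJD84.2 mice were hemizygous for a transgene with the whole human ATXN3 gene, its CAG repeat expanded, under the human promoter, and kept both copies of mouse Atxn3. The transgene is expressed ubiquitously, and no ataxia was seen in these animals. There were 8 wild-type and 6 SCA3 mice that had aged naturally to 17.5 months (74 to 77 weeks). Each mouse gave at most 1 library per region, and the libraries numbered 8 wild-type and 6 SCA3 for brainstem, 7 and 6 for cerebellum, 7 and 6 for cortex, and 8 and 5 for striatum. Mice are named below by the number in their label. The hour at which the mice were sacrificed is not given in the sources used here.

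The circadian clock is a feedback loop of transcription that runs in nearly every cell. BMAL1 (the product of Arntl) pairs with CLOCK, or with its forebrain relative NPAS2, and drives genes that carry E-box elements, among them the Per and Cry genes, Nr1d1 and Dbp. PER and CRY proteins return to the nucleus and repress that pair, while REV-ERB alpha (the product of Nr1d1) represses Arntl through ROR elements. DBP carries the rhythm to output genes through D-box elements. Transcripts of Per and Dbp peak at about the opposite phase to Arntl, so a single sample reads a level at the hour it was taken.

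The depth of the libraries was 31.7 to 76.7 M counts (M for mega), and the RNA integrity number (RIN) from 5.7 to 9.0. The least abundant member count in any library was 185 reads, for Npas2. Summed cerebellar markers (2700 to 4160 CPM) and brainstem markers (64.3 to 274 CPM) were separated from all other regions, at most 295 and 31.5 CPM there. These sums rest on 5 of 8 listed cerebellar markers and on 2 of 9 listed brainstem markers (Glra1 and Sncg), the others not being in the filtered table. Cortical markers (541 to 2160 CPM) and striatal markers (2030 to 8950 CPM) overlapped with other regions, which reached 831 and 3720 CPM. Summed thalamic markers reached 1800 and 2720 CPM in the striatal libraries of wild-type mice 7267058 and 7267059. They were at 179 to 662 CPM in the other wild-type striatal libraries and 185 to 468 CPM in SCA3 striatum. Over both genotypes the same sum was 651 to 1210 CPM in brainstem and 803 to 922 CPM in cerebellum, so these markers are not particular to thalamus. Mouse numbers fell into 3 series. The low-numbered series (7267054 to 7267059) held 3 wild-type and 2 SCA3 mice, the middle series (9082853 and 9082857) 1 of each, and the high-numbered series (9083371 to 9083515) 4 wild-type and 3 SCA3 mice. The mice were 75, 77 and 75 weeks old in these series, except that SCA3 mice of the high-numbered series were 74 weeks old. The wild-type mice of that series were 9083371 to 9083375 and the SCA3 mice 9083513 to 9083515. Number block and age therefore went with genotype there and cannot be told apart from it. What the series stand for is not stated, and values are given within them where they bear on a result.

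In the annotation of GRCm38, Arntl lies on chromosome 7 from 113207465 to 113314126 (plus strand), Clock on chromosome 5 from 76209868 to 76304792 (minus strand) and Npas2 on chromosome 1 from 39193731 to 39363236 (plus strand). Per1 spans 69095217 to 69109960 of chromosome 11 (plus strand), Per2 spans 91415982 to 91459324 of chromosome 1 (minus strand) and Per3 spans 151003652 to 151044665 of chromosome 4 (minus strand). Cry1 is found at 85131700 to 85185064 of chromosome 10 and Cry2 at 92403646 to 92434043 of chromosome 2, both on the minus strand. Dbp runs from 45705088 to 45710203 of chromosome 7 (plus strand) and Nr1d1 from 98767932 to 98775333 of chromosome 11 (minus strand). These positions are from GENCODE, whereas reads were counted on the exons of RefSeq genes, without strand. In GENCODE, exons of Nr1d1 share 263 bases with Thra on the other strand and those of Dbp share 539 with Sphk2. Those of Cry2 share 295 with D930015M05Rik and those of Arntl share 33 with Gm45355. Whether the RefSeq exons share these bases was not examined, so how far the levels of these 4 genes are uncertain is not known.

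Promoter sequence was available from RefSeq (GRCm38.p6) for 9 members, with 13 start sites between them. The 250 bases before each start were searched on both strands for the E-box CACGTG, the D-box TTATGTAA and the ROR element core AGGTCA. No match overlapped another. An E-box was present before a start of Per1 and of Cry1, a D-box before Per3 and a ROR element core before one of the starts of Clock and before Per1. Among 32851 windows of the same length over all genes, 6.02% held the E-box, 0.819% the D-box and 14% the ROR element core. Per1, Per3 and Dbp are printed because they differed between mice in the data below, and Cry1 because it was the other member with an E-box. Each is written 5′ to 3′ on the strand of its gene, ending at the base before the RefSeq start, with the matches in capitals. These starts can differ from the ends of the GENCODE spans given above. The Per1 window lies inside the span of Per1, and the Dbp and Cry1 windows reach into theirs. The Per1 window (chr11:69098699-69098948, plus strand) held its E-box 166 bases before the start and the ROR element core, read on the other strand, 137 before it. The window of the other Per1 start held none of the 3 motifs. The Per3 window (chr4:151044666-151044915, minus strand) held 2 D-boxes, 205 and 158 bases before the start. The Cry1 window (chr10:85185055-85185304, minus strand) held its E-box 60 bases before the start. The Dbp window (chr7:45704997-45705246, plus strand) held none of the 3 motifs.
Per1: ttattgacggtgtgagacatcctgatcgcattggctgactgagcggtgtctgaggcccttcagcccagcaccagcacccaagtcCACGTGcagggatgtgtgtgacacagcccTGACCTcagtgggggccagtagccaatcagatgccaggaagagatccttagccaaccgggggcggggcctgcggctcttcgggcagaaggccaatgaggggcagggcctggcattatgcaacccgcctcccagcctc
Per3: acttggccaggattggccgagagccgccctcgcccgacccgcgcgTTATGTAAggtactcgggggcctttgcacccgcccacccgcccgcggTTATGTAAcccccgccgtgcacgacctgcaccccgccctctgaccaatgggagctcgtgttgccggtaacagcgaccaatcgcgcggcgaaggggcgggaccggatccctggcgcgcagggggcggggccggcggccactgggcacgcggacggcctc
Cry1: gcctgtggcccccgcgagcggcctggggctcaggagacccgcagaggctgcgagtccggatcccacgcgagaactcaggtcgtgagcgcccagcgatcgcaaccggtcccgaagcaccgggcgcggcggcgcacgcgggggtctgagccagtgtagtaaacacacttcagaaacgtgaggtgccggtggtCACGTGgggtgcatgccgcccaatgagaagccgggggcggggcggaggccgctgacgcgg
Dbp: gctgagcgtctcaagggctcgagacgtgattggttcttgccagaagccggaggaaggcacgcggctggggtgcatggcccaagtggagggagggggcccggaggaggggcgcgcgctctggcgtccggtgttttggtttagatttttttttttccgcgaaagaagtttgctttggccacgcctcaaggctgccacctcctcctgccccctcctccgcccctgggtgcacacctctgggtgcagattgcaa

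Across wild-type regions, brainstem had the lowest mean level of every member except Clock, which was lowest in cortex, and Npas2, which was lowest in cerebellum. Against brainstem, 9 of 10 members differed in cerebellum, where 72.6% of all genes were called at a false discovery rate (FDR) below 0.05 (edgeR likelihood ratio test). Against brainstem, 10 of 10 differed in cortex (65.4% of all genes) and 9 of 10 in striatum (64.2% of all genes). Cortex differed from cerebellum in 7 of 10 members (69.7% of all genes), striatum from cerebellum in 6 of 10 (69.5% of all genes) and striatum from cortex in 2 of 10 (34.4% of all genes). In cerebellum against brainstem 8 of 10 members were called with RIN as a covariate or by the quasi-likelihood test. Regions were compared over wild-type mice as means ± SD in CPM, so levels are compared within a gene and not between genes.

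**Figure D1:**
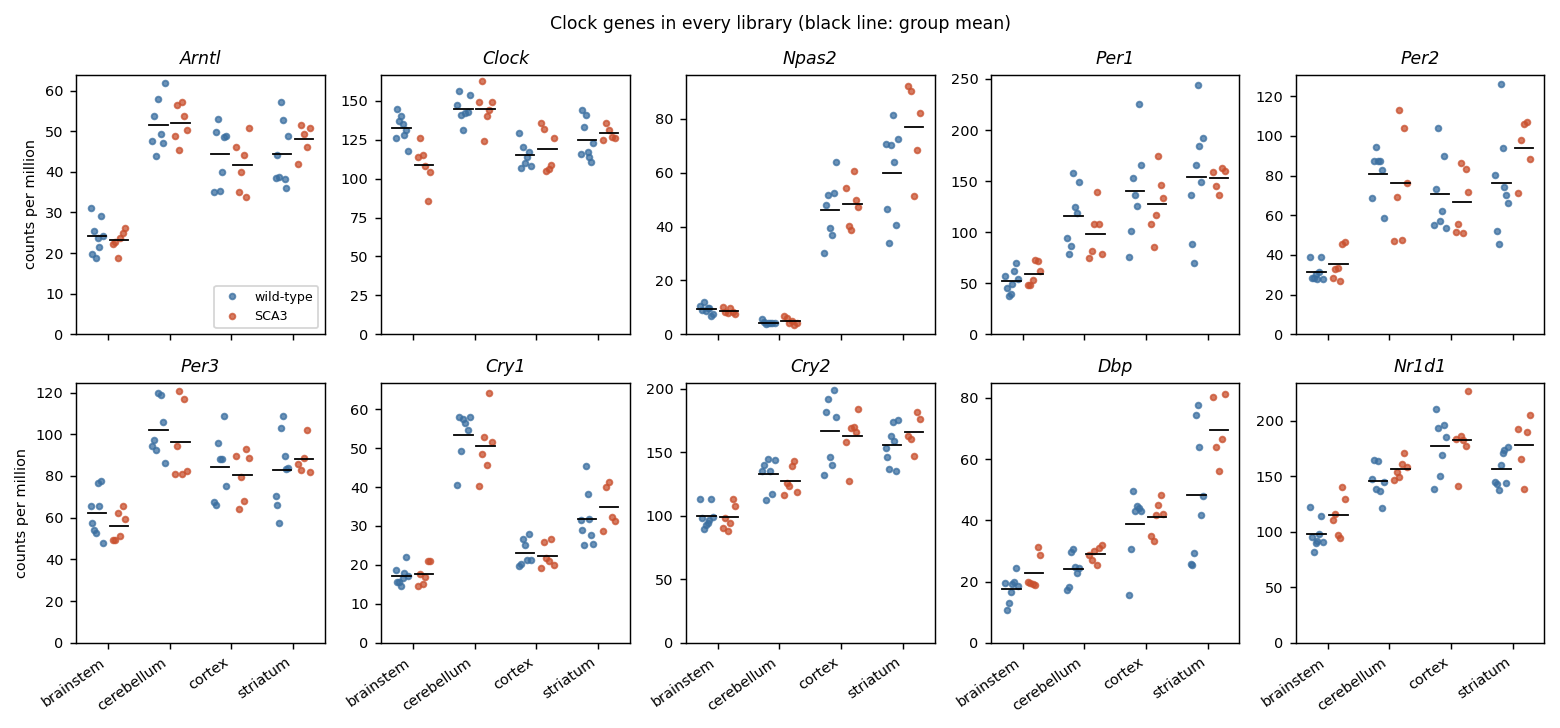
Level of each clock gene in every library. Each panel is 1 gene, the vertical axis is CPM from 0, points are libraries of wild-type (blue) and SCA3 (red) mice by brain region, and black lines are group means. Wild-type Npas2 means run from 4.36 CPM in cerebellum to 60 CPM in striatum, while those of Clock stay between 115 and 145 CPM.

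Among the activators, Npas2, a relative of Clock that can also pair with BMAL1, varied most between regions. Wild-type Npas2 was at 60 ± 17.3 CPM in striatum (n = 8) and 46.0 ± 11.4 CPM in cortex (n = 7). It was at 9.31 ± 1.70 CPM in brainstem (n = 8) and 4.36 ± 0.589 CPM in cerebellum (n = 7). The lowest library of cortex (30.1 CPM) was above the highest of brainstem (12.1 CPM), and the lowest of brainstem (6.66 CPM) above the highest of cerebellum (5.54 CPM). The fitted log2 difference was 3.79 (SE 0.16) between striatum and cerebellum, 2.31 (SE 0.16) between cortex and brainstem and fell by 1.1 (SE 0.16) from brainstem to cerebellum. Striatum and cortex overlapped, from 33.8 to 81.5 and from 30.1 to 63.9 CPM. Their log2 difference of 0.38 (95% interval 0.07 to 0.69, edgeR FDR 0.049) was lost in the fit paired by mouse, with the mouse as a replicate block (0.36, FDR 0.059).

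Arntl, the partner of both, was at 24.2 ± 4.28 CPM in wild-type brainstem (18.9 to 31.1, n = 8), below every library of the other regions. It was at 51.6 ± 6.45 CPM in cerebellum, 44.4 ± 7.44 in cortex (n = 7 each) and 44.3 ± 7.80 in striatum (n = 8). Cerebellum stood 1.09 above brainstem on the log2 scale (SE 0.11, FDR 1.8e-22), while cerebellum, cortex and striatum were not told apart (FDR from 0.059 to 0.99). Clock differed least. Its wild-type means were 145 ± 8.36 CPM in cerebellum, 132 ± 8.68 in brainstem, 125 ± 12.7 in striatum and 115 ± 7.84 in cortex, and the ranges of neighbours in that order overlapped. Cortex was 0.34 below cerebellum on the log2 scale (edgeR, SE 0.07, FDR 6.2e-06), whereas neighbours in the order missed the threshold. With the mouse as a replicate block, the 0.14 between cerebellum and brainstem passed for Clock (FDR 0.032).

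The Per genes, which encode the period repressors, shared the low level in brainstem. Per1 was at 51.9 ± 10.9 CPM in wild-type brainstem, 116 ± 30.7 in cerebellum, 140 ± 48.3 in cortex and 154 ± 56.5 in striatum. Per2 was at 31.5 ± 4.91, 80.9 ± 12.6, 70.8 ± 19.5 and 76.1 ± 25.4 CPM in the same order. Every wild-type brainstem library was below every library of the other regions for both genes, the nearest for Per1 being 69.4 and 69.7 CPM. Fitted log2 differences from brainstem were largest for Per1 in striatum (1.57, SE 0.19) and for Per2 in cerebellum (1.36, SE 0.18). Per1 and Per2 were not told apart among the other 3 regions, except that Per1 passed in striatum against cerebellum with the replicate block (0.43, FDR 0.0040) and with RIN as a covariate (0.46, FDR 0.025), but not without them (0.41, SE 0.20, FDR 0.058). Per3 followed a smaller gradient, from 62.1 ± 11.1 CPM in brainstem to 102 ± 13.3 in cerebellum (log2 difference 0.72, SE 0.12), with 84.3 ± 15.7 in cortex and 82.9 in striatum (57.2 to 109).

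The cryptochromes, partners of PER in repression, parted from each other. Cry1 was highest in cerebellum at 53.4 ± 6.46 CPM, against 31.8 ± 6.98 in striatum, 23.2 ± 3.31 in cortex and 17.3 ± 2.37 in brainstem, and each neighbouring pair differed (FDR from 4.5e-10 to 0.00081). The cerebellar range (40.5 to 58.0 CPM) met only the top of the striatal range (25.2 to 45.5 CPM). Cry2 was instead highest in cortex (167 ± 27.1 CPM) and striatum (155 ± 15.3 CPM), which were not told apart (FDR 0.34), and lower in cerebellum (133 ± 12.9 CPM) and brainstem (99.6 ± 8.99 CPM). Nr1d1, the repressor of Arntl, followed the Cry2 order, with 178 ± 26.2 CPM in cortex, 156 ± 15.7 in striatum, 146 ± 15.4 in cerebellum and 98.1 ± 13.4 in brainstem. Nr1d1 in striatum differed neither from cortex (FDR 0.13) nor from cerebellum (FDR 0.33) beyond the spread. The output factor Dbp was at 48.3 ± 21.5 CPM in striatum, 38.6 ± 11.7 in cortex, 24.0 ± 5.09 in cerebellum and 17.7 ± 4.27 in brainstem. Dbp stood 1.45 higher in striatum than in brainstem (log2, SE 0.20, FDR 4.6e-12), and striatum and cortex were not told apart (0.32, FDR 0.22). The step between cerebellum and brainstem in Dbp (0.44, FDR 0.044) was lost with RIN as a covariate (0.23, FDR 0.27). Without the striatal libraries of mice 7267058 and 7267059, Dbp passed in striatum against cortex (0.52, FDR 0.033), Per1 passed in striatum against cerebellum (0.63, FDR 0.0016) and Per3 no longer did (fell by 0.18, FDR 0.18). Calls near the threshold were also lost on leaving out single mice, for Dbp between cerebellum and brainstem with 10 of 14 mice, for Npas2 between striatum and cortex with 7, and for Per3 between cortex and cerebellum with 6 and between striatum and cerebellum with 4. Without mouse 9082857, Cry2 no longer differed in striatum against cerebellum (0.18, FDR 0.058) and Arntl did (fell by 0.32, FDR 0.0057). Without mouse 9083373, Nr1d1 missed the threshold in cortex against cerebellum (0.23, FDR 0.052). Other calls were gained in this way. Arntl passed in cortex against cerebellum without mouse 9082857 (fell by 0.30, FDR 0.0117) or 9083373 (fell by 0.26, FDR 0.0445), Per1 in striatum against cerebellum without mouse 7267058 (0.49, FDR 0.0209) or 7267059 (0.44, FDR 0.0356), and Clock in cerebellum against brainstem without mouse 7267058 (0.15, FDR 0.0451).

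The genotype contrast within a region asked which transcripts the transgene alters. A single clock gene, Clock, was lower in SCA3 brainstem, and no member was called in another region. That is 1 of 10 members in brainstem, where 1.92% of all genes were called, 0 of 10 in cerebellum (0.0647% of all genes), 0 of 10 in cortex (0.154% of all genes) and 0 of 10 in striatum (7.54% of all genes). By the same edgeR test at an unadjusted p under 0.05 there were 2 members in brainstem (13.3% of all genes), 0 in cerebellum (1.66%), 0 in cortex (4.07%) and 2 in striatum (23.2%). DESeq2, edgeR's quasi-likelihood test and limma-voom each called Clock in brainstem and no member in cerebellum, cortex or striatum. The median log2 difference of the members was 0.01 in brainstem, -0.03 in cerebellum, -0.05 in cortex and 0.12 in striatum, where 9 of 10 were above 0. The median over all genes was within 0.01 of 0 in each region.

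**Figure D2:**
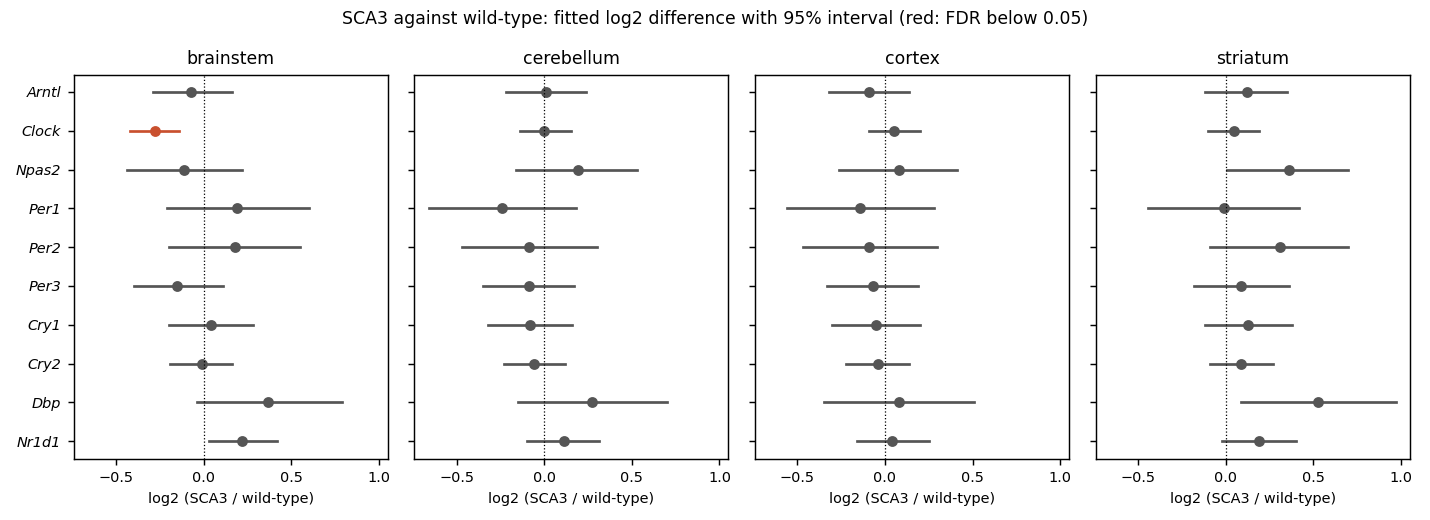
Fitted log2 difference of SCA3 over wild-type for each clock gene in the 4 regions. Points are estimates of the edgeR fit and bars their 95% intervals, the dotted line is no difference, and red marks an FDR below 0.05. Only Clock in brainstem is marked (fell by 0.28). The widest departures among the rest are Dbp in striatum (0.53), Dbp in brainstem (0.37) and Npas2 in striatum (0.36).

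Clock, which encodes the partner of BMAL1 at E-boxes, had brainstem levels of 118 (lowest), 133 (median) and 145 CPM (highest) in 8 wild-type mice. In 6 SCA3 mice the levels were 85.9, 111 and 126 CPM. All SCA3 libraries were below the wild-type median and 5 of 6 below every wild-type library, while the highest SCA3 value overlapped with the wild-type range. The mean fell from 132 ± 8.68 to 109 ± 13.4 CPM, and the fitted log2 difference fell by 0.28 (SE 0.07, 95% interval -0.42 to -0.14, edgeR FDR 0.0097). Wild-type and SCA3 means were 136 and 120 CPM in the low-numbered series, 140 and 115 CPM in the middle series (1 mouse each) and 128 and 99.5 CPM in the high-numbered series, lower in SCA3 in each.

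The Clock difference missed the threshold without SCA3 mouse 9083514 (fell by 0.23, FDR 0.126), which had the lowest level, and without SCA3 mouse 9083515 (fell by 0.27, FDR 0.0521). It was smaller with an offset for each library's trend with gene GC content (fell by 0.18, FDR 0.129). Clock has a GC content of 40.9% in its longest annotated transcript, against a median of 49.8% over all genes. Its deviations correlated with the GC trend of the library at r = -0.65 over 53 libraries. Brainstem RIN was 6.3 to 7.6 in wild-type and 7.4 to 8.0 in SCA3 mice, and with RIN as a covariate Clock still passed (fell by 0.26, FDR 0.0373). The summed astrocyte markers of brainstem were 2880 to 6870 CPM in wild-type and 2410 to 3750 CPM in SCA3 mice, with 2 of 6 called lower. Those of mature oligodendrocytes were 9920 to 20600 and 9050 to 15400 CPM, with 1 of 6 called lower. Those of microglia were 154 to 273 and 163 to 195 CPM, with all 5 below 0 (median log2 difference -0.18) and 1 of 5 called lower. None of these markers was at 0. The part of these in the Clock result was not tested, and in dissected tissue fewer cells of a type and less RNA per cell cannot be told apart.

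In the other regions Clock missed the threshold, with log2 differences of 0.00 (95% interval -0.14 to 0.15) in cerebellum, 0.05 (-0.09 to 0.20) in cortex and 0.05 (-0.10 to 0.19) in striatum. The test of whether the SCA3 effect depended on region called 0 of 10 members (0.218% of all genes). There 1 of 10 members had an unadjusted p under 0.05 (9.09% of all genes), Clock, with an FDR of 0.19. The test of an SCA3 effect in any region also called 0 of 10 members (4.73% of all genes), with 2 at an unadjusted p under 0.05 (16.6% of all genes), Clock (FDR 0.057) and Dbp (FDR 0.24). DESeq2 called Clock in the latter test (FDR 0.0348), and quasi-likelihood and limma-voom called no member.

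Dbp had the largest fitted difference of the members, in striatum, and it did not pass. The 5 SCA3 libraries were at 56.0, 64.1, 66.7, 80.2 and 81.4 CPM. Wild-type striatum ran from 25.3 over a median of 44.8 to 77.6 CPM (n = 8), and all SCA3 libraries were above that median. The log2 difference was 0.53 (SE 0.22, 95% interval 0.09 to 0.97, edgeR FDR 0.12). The wild-type mice of the low-numbered series were the low ones (25.3, 25.8 and 29.2 CPM), with SCA3 mice of that series at 64.1 and 80.2 CPM. In the middle series the wild-type mouse was higher (74.5 against 56.0 CPM), and in the high-numbered series the means were 57.9 in wild-type and 74.1 CPM in SCA3.

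The call on striatal Dbp depended on the libraries and covariates. It passed with RIN as a covariate (0.69, FDR 0.0167), with the number series as a covariate (0.64, FDR 0.0103), with the GC offset (0.56, FDR 0.0234), and without wild-type mouse 9082857 (0.65, FDR 0.0331) or wild-type mouse 9083371 (0.66, FDR 0.0299). It was further from the threshold in the high-numbered series alone (0.36, FDR 0.635) and in libraries with a RIN of at least 7 (0.26, FDR 0.621). Without the libraries of mice 7267058 and 7267059, high in thalamic markers, it was 0.33 (FDR 0.502), and 0 of 10 members were called where 2.34% of all genes were. With all libraries, 8 of 12 thalamic markers were called lower in SCA3 striatum (median log2 difference -1.66 over the 12), and none was at 0 in any library. The part of these in the Dbp values was not tested. Dbp differences elsewhere were 0.37 (95% interval -0.04 to 0.79) in brainstem, 0.27 (-0.15 to 0.70) in cerebellum and 0.08 (-0.35 to 0.51) in cortex.

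Of the remaining members, Npas2 in striatum (0.36, 95% interval 0.01 to 0.70, FDR 0.19) and Nr1d1 in brainstem (0.22, 0.03 to 0.42, FDR 0.29) had an unadjusted edgeR p under 0.05. Striatal Npas2 was at 51.2, 68.6, 82.1, 90.5 and 92.0 CPM in SCA3 mice and ran from 33.8 over 67.1 to 81.5 CPM in wild-type, so 3 of 5 SCA3 libraries were above every wild-type one. The lowest wild-type value was that of mouse 7267059, and without its striatal library and that of mouse 7267058 the Npas2 difference was 0.21 (FDR 0.62) and no member had an unadjusted p under 0.05 in striatum. Summed striatal markers were 5470 to 8080 CPM in SCA3 and 2030 to 8950 CPM in wild-type striatum, with all 9 above 0 in SCA3 (median log2 difference 0.47) and 0 of 9 called. The part of these in the Npas2 values was not tested. Brainstem Nr1d1 ran from 94.5 over 113 to 140 CPM in SCA3 and from 82.2 over 93.4 to 122 CPM in wild-type, with every SCA3 library above the wild-type median. The Nr1d1 difference was 0.15 with the GC offset (FDR 0.645), 0.19 with RIN as a covariate (FDR 0.542) and 0.15 without mouse 9083514 (FDR 0.839), and its unadjusted p was above 0.05 in each. The intervals for Arntl lay between -0.32 and 0.35 in all regions and those for Cry2 between -0.23 and 0.27. For Per1 the intervals reached from -0.66 in cerebellum to 0.60 in brainstem.

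The other genes of the clock were counted by lists. Of 12 further transcription factors of the loop (among them the Ror genes, Nr1d2, Bhlhe40, Tef and Hlf), none was called in brainstem, cerebellum or cortex by edgeR, and 2, 0 and 0 had an unadjusted p under 0.05 (13.3%, 1.66% and 4.07% of all genes). In striatum 1 of 12 was called (7.54% of all genes), with 4 at an unadjusted p under 0.05 (23.2% of all genes). DESeq2 and the quasi-likelihood test called none in the first 3 regions either. Their median log2 difference was -0.13 in brainstem with 12 of 12 below 0, -0.03 in cerebellum with 7 below 0, -0.10 in cortex with 8 and -0.10 in striatum with 7, against a median over all genes within 0.01 of 0. In brainstem the astrocyte (median -0.49), oligodendrocyte (-0.17) and microglia (-0.18) markers were also all below 0, and RIN ran higher in SCA3 mice with an overlap, as given above for Clock. Their part was not tested. The gene called in striatum was Nfil3, a repressor at D-boxes that opposes DBP, which was lower (fell by 0.38, SE 0.12, FDR 0.029), and without the striatal libraries of mice 7267058 and 7267059 the difference kept its size but missed the threshold (fell by 0.38, FDR 0.088). It also missed the threshold on leaving out a single mouse for 5 of 14 mice, with the GC offset (fell by 0.33, FDR 0.051), by limma-voom (FDR 0.064), in the striatal libraries alone (FDR 0.18), in libraries with a RIN of at least 7 (FDR 0.14) and in the high-numbered series alone (FDR 0.63). Summed oligodendrocyte markers were 6270 to 18300 CPM in wild-type and 5760 to 8710 CPM in SCA3 striatum, with all 6 below 0 (median -0.37) and 2 called lower. Those of astrocytes were 3660 to 5350 and 3840 to 4270 CPM, with all 6 below 0 (median -0.34) and 2 called lower. None was at 0, and their part in the Nfil3 values was not tested. Of 9 rhythmic output genes none was called in any region by edgeR, DESeq2 or the quasi-likelihood test. The 2 with an unadjusted edgeR p under 0.05 were both in striatum (23.2% of all genes). Of 12 glucocorticoid response genes, Nfkbia, an inhibitor of NF-kappa B, was higher in SCA3 brainstem (0.34, SE 0.09, FDR 0.0091), 1 of 12 where 1.92% of all genes were called. Nfkbia missed the threshold in the high-numbered series alone (0.31, FDR 0.33) and when brainstem libraries were fitted alone (0.33, FDR 0.064). The median of the 12 was 0.14 in brainstem, 0.20 in cerebellum, where all 12 were above 0, 0.16 in cortex and 0.09 in striatum. In cerebellum the summed choroid plexus markers were 19.6 to 2120 CPM in wild-type (median 140) and 658 to 2000 CPM in SCA3 mice (median 1140), with 0 of 3 measured markers called. Endothelial markers were 151 to 193 and 124 to 158 CPM there, with all 5 below 0 (median -0.24) and 0 of 5 called. None of these markers was at 0, and their part was not tested. No other gene of the list was called in a single region, with 4, 1, 3 and 3 of the 12 at an unadjusted p under 0.05, beside 13.3%, 1.66%, 4.07% and 23.2% of all genes in brainstem, cerebellum, cortex and striatum. The test of an SCA3 effect in any region called 2 of the 12, Nfkbia (FDR 2.9e-05) and Plin4 (FDR 0.016), where 4.73% of all genes were called, with 6 at an unadjusted p under 0.05 (16.6% of all genes). That test takes the regions of a mouse as independent libraries. With the mouse as a random replicate block in limma-voom the FDR was 0.0068 for Nfkbia and 0.0034 for Plin4. Plin4 missed the threshold by the quasi-likelihood test (FDR 0.056) and on leaving out a single mouse for 7 of 14 mice, and it differed between mice of a genotype as given below. None of 11 measured activity-induced genes of 12 listed was called in a region by any of the 3 tests. At an unadjusted edgeR p under 0.05 there were 2 in cerebellum (1.66% of all genes) and 2 in striatum (23.2% of all genes). The median of the 11 was -0.01 in brainstem with 6 of 11 below 0, -0.18 in cerebellum with 7, -0.22 in cortex with 10 and -0.03 in striatum with 7. In cortex all 6 astrocyte markers (median -0.15) and all 3 measured choroid plexus markers (median -0.61) were below 0, with 0 called. The oligodendrocyte (0.11) and endothelial (0.03) medians were above 0 there. The part of these markers was not tested.

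Levels of 4 members also differed between mice of the same genotype. The test asked whether a mouse's libraries stood together above or below the means of their region and genotype (edgeR quasi-likelihood F test, 12 mouse coefficients). Per1 (FDR 0.0011), Dbp (FDR 0.0015), Per2 (FDR 0.0024) and Per3 (FDR 0.0033) passed, 4 of 10 members where 17.5% of all genes passed. Arntl (FDR 0.83), Cry2 (FDR 0.65), Nr1d1 (FDR 0.63), Npas2 (FDR 0.50), Cry1 (FDR 0.19) and Clock (FDR 0.13) missed the threshold. The 4 genes passed with each mouse left out in turn, with RIN as a covariate (FDR from 0.0075 to 0.0285) and with the GC offset. Without the cerebellar libraries Per2 (FDR 0.0527) and Dbp (FDR 0.0543) missed the threshold, as did Per3 without brainstem (FDR 0.062), Per2 without cortex (FDR 0.061) and Dbp without striatum (FDR 0.0925).

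**Figure D3:**
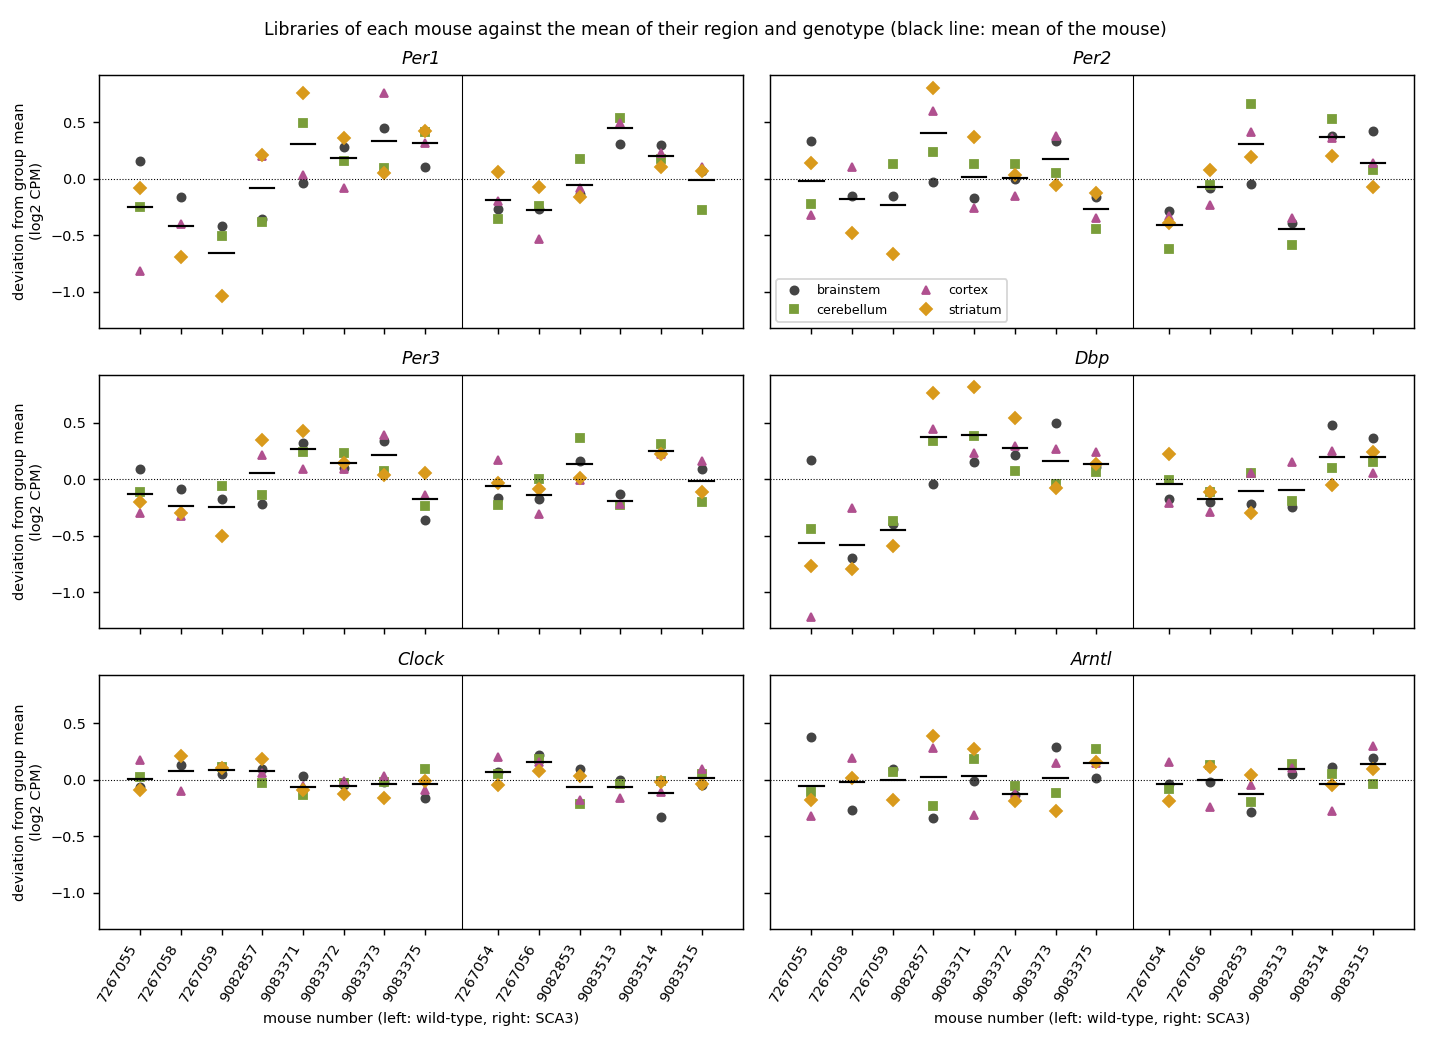
Deviation of each library from the mean of its region and genotype in log2 CPM, by mouse, for 6 clock genes. Markers are the brain regions, black lines are mouse means, the dotted line is no deviation, and wild-type mice stand left of the vertical line and SCA3 mice right of it. Wild-type mice of the low-numbered series lie low for Dbp (means from -0.58 to -0.45) and Per1 (from -0.66 to -0.25), while Arntl means stay between -0.13 and 0.15.

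Averaged over its regions, Dbp was -0.56, -0.58 and -0.45 from the group means in wild-type mice 7267055, 7267058 and 7267059 (log2 CPM). In the high-numbered series the wild-type mice were at 0.40, 0.28, 0.16 and 0.13, and mouse 9082857 was at 0.37. The SCA3 mice lay closer together, between -0.17 and 0.20 in all series. Per1 showed the same split in wild-type mice, with -0.25, -0.42 and -0.66 in the low-numbered series and 0.31, 0.18, 0.34 and 0.31 in the high-numbered series. SCA3 mice of the low-numbered series were at -0.19 and -0.28 for Per1, and those of the high-numbered series at 0.45, 0.20 and -0.01.

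Per2 was highest in mouse 9082857 (0.40), SCA3 mouse 9083514 (0.37) and SCA3 mouse 9082853 (0.30). It was lowest in SCA3 mice 9083513 (-0.44) and 7267054 (-0.41), so mice 9083513 and 9083514 of a single series and genotype lay at opposite ends. Per3 was low in the same wild-type mice as Per1 and Dbp (-0.13, -0.24 and -0.25 in the low-numbered series), also low in wild-type mouse 9083375 (-0.17), and highest in mouse 9083371 (0.27). All sampled regions of a mouse were on one side of the group means in 8 of 14 mice for Per3, 7 for Per1, 7 for Dbp and 4 for Per2. Of the members that missed the threshold, Clock had 4, Arntl, Npas2, Cry1 and Cry2 had 3 each and Nr1d1 had 1, and the median over all genes was 3.

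Fewer calls were made between mice of the same number series and genotype. Over all series together 0 of 10 members passed the edgeR test, with 2 at an unadjusted p under 0.05 (15.1% of all genes), and 3.1% of all genes passed. Per2 (FDR 0.084) and Per3 (FDR 0.095) were nearest, while Per1 (FDR 0.58) and Dbp (FDR 0.86) were far from the threshold. In the high-numbered series alone, Per2 passed (FDR 0.0244) and Per3 did not (FDR 0.0514), 1 of 10 members where 1.33% of all genes passed, with 2 at an unadjusted p under 0.05 (9.62% of all genes). A contrast of the high-numbered with the low-numbered series over all regions, chosen after these values were seen, called 4 of 10 members, where 11.6% of all genes were called (limma-voom with the mouse as a random replicate block). Per1 was higher in the high-numbered series by 0.60 on the log2 scale (SE 0.09, FDR 7.6e-05), Dbp by 0.54 (SE 0.11, FDR 0.00098) and Per3 by 0.24 (SE 0.07, FDR 0.022). Clock fell by 0.13 (SE 0.04, FDR 0.019).

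RNA quality moved with the series, most in striatum. Striatal RIN had a median of 6.2 (5.7 to 7.3) in the low-numbered series and 8.0 (7.7 to 9.0) in the high-numbered series, while cerebellar RIN had medians of 7.65 and 7.9. Over the 53 libraries the deviations correlated with RIN at r = 0.49 for Dbp, 0.38 for Per3, 0.34 for Per1 and 0.33 for Per2. With the GC trend of the library, r was 0.73 for Per1 and 0.72 for Dbp, whose longest annotated transcripts have a GC content of 59.4% and 61.6%. The correlation with the GC trend was 0.23 for Per2 and 0.41 for Per3. Members that missed the test between mice had such correlations as well, at 0.66 for Nr1d1, 0.64 for Cry2 and -0.65 for Clock with the GC trend and 0.30 for Cry1 with RIN. These correlations are descriptions over libraries that share mice. RIN and GC as terms of the fit are given above. The GC trend was not set out by series, and what else differed between the series cannot be told apart from RIN.

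Genes of other programmes differed between mice as well. Beside the 17.5% of all genes that passed, 5 of 12 glucocorticoid response genes did, led by Plin4 (FDR 2.9e-11), a lipid droplet coat protein, with Zbtb16 (FDR 0.0030), Sult1a1 (FDR 0.0030) and the metallothioneins Mt2 (FDR 0.0035) and Mt1 (FDR 0.019). Of 11 activity-induced genes 6 passed, among them the phosphatase gene Dusp1 (FDR 0.00028), Btg2 (FDR 0.00029) and Fos (FDR 0.00049). Of the further clock lists, 1 of 12 transcription factors (Bhlhe41, a repressor at E-boxes, FDR 0.0029), 1 of 8 kinases and ligase parts (Csnk2a1, FDR 0.0094) and 1 of 9 output genes (Coq10b, FDR 0.031) passed, shares below that of all genes. The call on Coq10b was lost on leaving out a single mouse for 3 of 14 mice and with RIN as a covariate (FDR 0.16), that on Mt1 for 2 mice and with RIN (FDR 0.095), and that on Sult1a1 without mouse 7267055 (FDR 0.095). Between mice of the same series, Plin4 (FDR 0.00085) and Btg2 (FDR 0.0029) still passed, and the other genes named here did not (FDR from 0.13 to 0.90).

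Agreement between 2 regions of a mouse was also taken pair by pair. For each member and each of 6 pairs of regions, the deviations from the region and genotype means were correlated over mice, giving 60 relations. Of these 46 were positive, 39 without the 2 mice farthest from the median and 33 in the high-numbered series alone. By permutation test, 9 relations had an unadjusted p under 0.05 (8 by Spearman's rho) and 0 passed after Benjamini-Hochberg adjustment over the 60. The mean r over the 6 pairs was 0.562 for Dbp, 0.518 for Per1, 0.463 for Per2 and 0.458 for Per3. It was 0.237 for Clock, 0.20 for Cry1, 0.023 for Npas2, 0.02 for Cry2, -0.027 for Nr1d1 and -0.078 for Arntl. The median over the members was 0.218, beside a median of 0.143 and a 95th percentile of 0.552 over all genes, which 1 member (Dbp) exceeded.

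**Figure D4:**
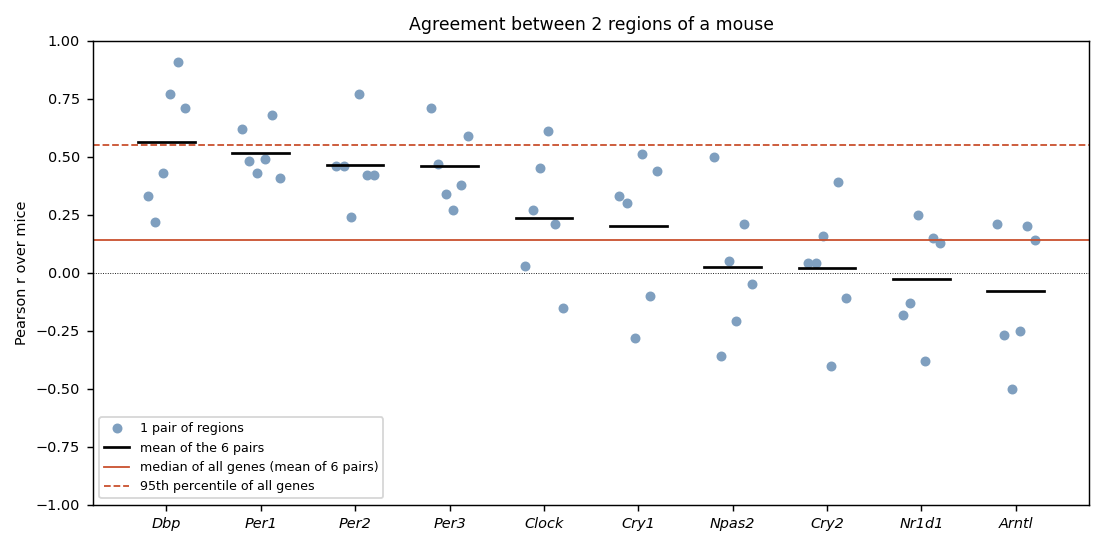
Agreement between 2 regions of a mouse for each clock gene. Points are Pearson r over mice for 1 of the 6 pairs of regions, black lines are the mean of the 6, and the red lines mark the median (solid, 0.143) and 95th percentile (dashed, 0.552) of that mean over all genes. Dbp, Per1, Per2 and Per3 have all 6 pairs above 0, while the pairs of the other 6 genes lie on both sides of 0.

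The closest relation was that of Dbp in cerebellum and striatum over 12 mice. Pearson's r was 0.91 (permutation p = 0.0010, adjusted 0.062) and Spearman's rho 0.88 (permutation p = 0.0014, adjusted 0.063). It was 0.80 without the 2 farthest mice and 0.82 over the 6 mice of the high-numbered series. Per2 in cerebellum and cortex had r = 0.77 (permutation p = 0.0031, adjusted 0.092) and rho = 0.82 (permutation p = 0.0023, adjusted 0.063) over 12 mice, with 0.72 without the 2 farthest and 0.73 in the high-numbered series. Per3 in brainstem and cerebellum had r = 0.71 (permutation p = 0.0067, adjusted 0.13) and rho = 0.73 (permutation p = 0.0031, adjusted 0.063) over 13 mice, with 0.65 and 0.76 in the same settings.

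Centring on the number series separated the members. The mean r of Per3 was then 0.465 and that of Per2 0.377, while that of Per1 was 0.109 and that of Dbp 0.01. In the high-numbered series alone the values were 0.556 for Per3, 0.431 for Per2, 0.044 for Dbp and -0.047 for Per1. Removing each library's GC trend left them at 0.537 for Dbp, 0.518 for Per1, 0.49 for Per2 and 0.468 for Per3. Deviations from a fit with RIN gave lower values, 0.259 for Dbp, 0.323 for Per1, 0.355 for Per2 and 0.256 for Per3.

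Because Arntl peaks opposite to Per and Dbp over the day, its mouse means were set against those of the other 9 members over 14 mice. None of the 9 relations passed the permutation test after adjustment, and 1 had an unadjusted p under 0.05. That was Cry2, with r = 0.59 (permutation p = 0.047, adjusted 0.43) and rho = 0.49 (permutation p = 0.097, adjusted 0.65), and r = 0.36 without the 2 farthest mice. Arntl with Per3 gave r = -0.30 (permutation p = 0.30, adjusted 0.54) and rho = -0.20 (permutation p = 0.52, adjusted 0.67). Arntl with Per2 gave r = -0.27 (permutation p = 0.38, adjusted 0.57) and rho = -0.20 (permutation p = 0.52, adjusted 0.67). In the high-numbered series, over 7 mice, these stood at -0.66 for Per3 and -0.48 for Per2, and over all mice but the 2 farthest at -0.24 and -0.31. Arntl with Per1 gave r = 0.32 (permutation p = 0.27, adjusted 0.54) and rho = 0.41 (permutation p = 0.16, adjusted 0.65), and r = 0.24 without the 2 farthest mice. Arntl with Dbp gave r = 0.23 (permutation p = 0.44, adjusted 0.57) and rho = 0.29 (permutation p = 0.33, adjusted 0.67), and r = 0.09 without the 2 farthest. In the high-numbered series Per1 stood at 0.12 and Dbp at -0.33. The median r over the 9 members was 0.23. With deviations from a fit with RIN the values over 14 mice were -0.64 for Per3, -0.48 for Per2, -0.33 for Cry1, 0.17 for Per1 and 0.01 for Dbp, with a median of 0.14 over the 9 and no test.

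The genes most like Dbp were sought by Pearson's r of deviations over the 53 libraries, with no test. They were Mesdc1 (0.92), C1qtnf4 (0.90), Rps6ka4 (0.88) and Stub1, Znrf1, Zfp428, Fbxl14 and Ccdc85b (0.87 each). Their GC content was 54.3 to 70.7%, and 4 of 8 exceeded the 90th percentile of all genes (58.0%). With the GC trend removed Mesdc1 still ranked 1 (r = 0.89), whereas Rps6ka4 ranked 44 and Zfp428 ranked 61. Per1 had r = 0.70 with Dbp (rank 332) and Per3 0.62, while Clock had -0.45, which became -0.14 with the GC trend removed.

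The genes most like Arntl were Usp2 (0.78), Cap2 (0.78), Ctcf (0.77), Ccsap (0.77), Ubtd2 (0.76), Dab2ip (0.74), Slc8a2 (0.74) and Itpr1 (0.74). Usp2, a deubiquitinase gene of the rhythmic output list, ranked 1 with the GC trend removed as well (r = 0.80). Cry2 was the nearest clock gene to Arntl, at rank 14 (r = 0.72) and at rank 5 with the GC trend removed (r = 0.78), followed by Nr1d1 at rank 155 (r = 0.60). Dbp had r = 0.40 with Arntl over the libraries.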

How the data were processed

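The authors deposited untransformed counts of reads for each gene and library. Per the labels and the study's methods, poly-A selected libraries without strand information were trimmed with Sickle and cutadapt 1.10, aligned to GRCm38 with STAR 2.3.0e keeping unique alignments, and counted per RefSeq gene with HTSeq 0.6.1 without strand. Genes averaging above 4 CPM were kept.

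Counts were normalised by TMM in edgeR 4.0.16 (R 4.3.3). Following the study, 1 negative binomial fit took all 53 libraries with a coefficient per region and genotype, tested by likelihood ratio with Benjamini-Hochberg adjustment over all 12372 genes. A false discovery rate (FDR) below 0.05 was called. Differences between mice were tested by quasi-likelihood F test in a fit with mouse coefficients. Log2 CPM used a prior count of 2. Correlations were tested by two-sided permutation with 100000 resamples. Scripts were tested on simulated data. DESeq2 1.42.0, limma 3.58.1, RIN, age and series covariates, subsets of libraries and leaving out each mouse were alternatives. The GC offset of the fits was a smooth curve (loess) of each library's deviations on gene GC content. The GC trend removed from deviations before correlation was taken over 40 bins. Both of these, the series within-tests and contrast, and the fit without 2 striatal libraries were chosen after seeing the data.

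Libraries of a mouse carry its number, which paired them (limma consensus correlation 0.14). The region and genotype tests had no replicate block, and the mouse as a block was an alternative. Each library came from its own mouse and region. All 10 members are named. Of each further list at most 5 called genes with the smallest FDR are named, and 8 genes most like Dbp and Arntl. The genotype result of the list of clock kinases and ubiquitin ligases is not reported here. Members and lists were chosen with earlier results of these data known.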

Additional observations from a re-analysis of the deposited data

Results flagged for a closer look

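Over 100 groups of libraries or mouse means examined for a value far from the rest, 1 stood apart, where chance gives about 1 in 20. Dbp in wild-type cortex was at 15.7 CPM in mouse 7267055, and the other libraries of that group were at 30.6 to 49.6 CPM. The gap to the nearest was 0.58 of the range of 7 libraries on the log2 scale, past Dixon's critical value, and 0.44 on the CPM scale, below it. On the CPM scale, added after seeing the data, 0 of 80 groups of libraries passed that value.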

How the results depend on the processing

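Of 368 counts of called members and median correlations recomputed under an alternative, 337 stayed within 1.5 times the reported value or within its spread, and no single member's called value reversed its sign. The number of all genes called moved with the setting as well, so these counts of members are not read alone. In brainstem the SCA3 call on Clock gave 0 members with the GC offset (179 of 12372 genes called). With each mouse left out it gave 0 to 1 (120 to 309 genes called). In striatum 1 member (Dbp) was called with RIN, with the number series as a covariate and with the GC offset, and 0 to 1 with each mouse left out. The test over any region called 1 member (Clock) with DESeq2 (734 of 12372 genes called) and in the largest series alone (263 genes). It also called 1 (Clock) without the 2 striatal libraries high in thalamic markers (442 genes). It called 2 (Clock, Dbp) with the series as a covariate (757 genes), and 0 to 1 with each mouse left out (278 to 1049 genes). The test between mice called 1 member in the largest series (1.33% of all genes) and 0 within the series (3.1% of all genes). It called 2 without the cerebellar libraries and 4 with each mouse left out. Striatum against cortex called 1 member with the quasi-likelihood test, with the mouse as a fixed replicate block and with RIN, and 1 to 2 with each mouse left out. Leaving out mice gave 8 to 9 for cerebellum against brainstem, 6 to 8 for cortex against cerebellum and 5 to 6 for striatum against cerebellum. The median agreement between regions, 0.22, became 0.03 centred on the series and 0.04 in the largest series and 0.11 with deviations from a fit with RIN, and was 0.14 to 0.27 with each mouse left out. The median relation of Arntl to the others was 0.11 to 0.38. The replicate block changed no other region call than those of Clock, Per1 and Npas2 given above, and with the mouse as a random replicate block in limma-voom Clock in brainstem had an FDR of 0.00969 (0.0108 without). Why settings differ was not tested beyond the values given. With 5 to 8 mice a group and hours of sampling that are not given, the precision is that of the printed intervals.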
